A study of Mus musculus with 18 samples.

Results

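Prostaglandins are lipid signals made from arachidonic acid, which phospholipases release from membranes and the cyclooxygenases Ptgs1 and Ptgs2 turn into the precursor prostaglandin H2. Terminal synthases convert that precursor into separate products: Ptges, Ptges2 and Ptges3 are named for making prostaglandin E2, Ptgds makes prostaglandin D2, and Ptgis makes prostacyclin. The transporter Slco2a1 takes prostaglandins into cells, where Hpgd, the 15-hydroxyprostaglandin dehydrogenase, begins their breakdown, and Ptger4 is a receptor of prostaglandin E2 on the cell surface. In skeletal muscle these signals are known for acting on myoblast fusion, myotube growth and muscle stem cells. Such genes were followed here as a set of 10 picked by symbol, of which 9 were measured among 22180 genes of the array. Ptgs1 had no probe set of its own in the annotation and was not analysed here. Each of the other 9 genes was read by 1 singly named probe set, and 2 further probe sets shared by Ptges3 and its pseudogene were not used. The set was chosen because Hpgd had been seen to be higher with both Nup210 shRNA and Mef2c shRNA and Ptgs2 lower with Mef2c shRNA. Those values are therefore given below as a description with no p-value. Counts of called members that include them are marked as such.

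Expression was read on 18 arrays, 1 sample each, in 3 groups of 6. The cells were C2C12, an established line of mouse myoblasts that forms myotubes when serum is reduced. Every group had 20% fetal bovine serum for growth and 2% horse serum for differentiation, was given lentivirus at 36 h of differentiation and was collected after a further 48 h. The groups carried Nup210 shRNA, aimed at a membrane protein of the nuclear pore, Mef2c shRNA, aimed at a muscle transcription factor, or Control scramble shRNA. All of these cells, controls included, had been through lentiviral infection, and the labels do not say whether samples of a group were cultured separately. Each p-value is thus set against sample-to-sample spread that could be technical. Values are log2 expression levels, and called means a Benjamini-Hochberg adjusted p under 0.05 in a limma fit to all genes, with each SE taken from that fit.

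Mef2c itself ran from 7.51 to 8.08 in Mef2c shRNA arrays and from 10.10 to 10.54 in control arrays. That is 17.9% of the control level (exact two-sided permutation p = 0.00216 for n = 6 against 6, the smallest that 924 splits allow, and 0.00433 adjusted over 2 tests). Nup210 ran from 5.54 to 5.79 in Nup210 shRNA arrays and from 5.57 to 5.81 in control arrays, 93.1% of the control level, which did not exceed the spread between samples (exact permutation p = 0.0801, also after adjustment). These values lie just above the background guide described below (5.47), where RMA compresses differences, so the percentage is no measure of how far Nup210 RNA was reduced, and a knockdown is not shown. Without control array 6 that exact p was 0.0303, and without Nup210 shRNA array 6 it was 0.0498. Leaving out any other single array of these groups it ran from 0.0758 to 0.190. Against Mef2c shRNA arrays the log2 difference of Nup210 was -0.23 (limma adjusted p = 0.0178). Mef2c shRNA arrays differed from control by 0.13 (adjusted p = 0.232). Because a knockdown against control is not shown, the Nup210 shRNA arrays are called by their label. Array medians ran from 5.48 to 5.57, correlations across genes between arrays of the same group from 0.991 to 0.995, and the number of arrays limits the precision.

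The sequences just upstream of Ptgs2, Hpgd and Ptgds are shown because these genes, with Ptgis, hold the largest differences of the set. They are RefSeq promoter windows of build GRCm38.p6, 250 bases up to the annotated transcript start, written along the gene's strand. Capitals mark every match on either strand to TATAAA (the TATA box), CANNTG (the E-box), TGACG (part of a cAMP response element), the core of a MEF2 site or an NF-kB pattern; no match overlapped another in the stretches printed.
Ptgs2, chr1:150099781-150100030, plus strand: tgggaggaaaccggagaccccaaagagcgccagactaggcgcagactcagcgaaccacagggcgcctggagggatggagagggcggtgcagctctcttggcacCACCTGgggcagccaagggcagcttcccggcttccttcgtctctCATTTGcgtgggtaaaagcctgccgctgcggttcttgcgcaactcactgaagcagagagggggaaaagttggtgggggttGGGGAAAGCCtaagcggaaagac
Hpgd, chr8:56294302-56294551, plus strand: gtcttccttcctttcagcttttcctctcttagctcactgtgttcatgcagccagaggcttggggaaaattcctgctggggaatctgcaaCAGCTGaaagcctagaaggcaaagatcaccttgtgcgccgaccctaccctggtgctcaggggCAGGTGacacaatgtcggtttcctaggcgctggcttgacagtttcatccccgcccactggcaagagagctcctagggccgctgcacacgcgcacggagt
Ptgds, chr2:25469750-25469999, minus strand: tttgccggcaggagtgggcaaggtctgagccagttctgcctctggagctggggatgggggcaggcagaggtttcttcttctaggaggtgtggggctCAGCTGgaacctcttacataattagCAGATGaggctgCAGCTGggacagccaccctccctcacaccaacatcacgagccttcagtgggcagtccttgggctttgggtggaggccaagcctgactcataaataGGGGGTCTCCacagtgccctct
The search also covered the 50 bases after the annotated start. There Hpgd had TATAAA from base 5, and Ptgs2 had TGACG on its minus strand from base 14, which overlapped an E-box from base 17. The window held an E-box match in 7 of the 9 members with a window in the table used (Ptgs1 among them; a Ptgis window was not used here), against 72.31% of all 32851 promoter windows of 300 bases. TATAAA was found in 2 members (Hpgd and Slco2a1) and in 13.62% of all windows, TGACG in 2 (Ptgs2 and Ptges3) and in 20.81%, and the NF-kB pattern in 6 and in 50.79%. The MEF2 core was in none of the 9 and in 3.69% of all windows. A match of letters is a description, not a bound site, and its absence from so short a window says nothing about the factor.

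Ptgs2, the inducible cyclooxygenase, was lowest in the Mef2c shRNA arrays. Its level ran from 9.48 through a median of 9.69 to 9.76 in Nup210 shRNA arrays, from 8.78 through 9.06 to 9.24 in Mef2c shRNA arrays, and from 9.34 through 9.47 to 9.80 in control arrays. All 6 Mef2c shRNA arrays lay below every array of both other groups, while Nup210 shRNA and control arrays overlapped. Of all genes 7.74% did not overlap between Mef2c shRNA and control, and 8.62% between Nup210 shRNA and Mef2c shRNA. The separation from control is part of the pattern that chose the set. With Mef2c shRNA the mean was 9.06 ± 0.17 (SD, n = 6) against 9.50 ± 0.17 in controls, a log2 difference of -0.44 ± 0.083 (SE), or 0.736 of the control level; this is a value that chose the set. With Nup210 shRNA the mean was 9.66 ± 0.097, and the log2 difference from control of 0.16 ± 0.083 did not pass (limma adjusted p = 0.289, 95% interval -0.01 to 0.34). That test shares the control arrays whose Ptgs2 values entered the rule, so nothing is read from it. Ptgs2os, a noncoding RNA gene beside Ptgs2 in the RefSeq table and looked up after the values were seen, ran from 5.46 to 5.91 with Nup210 shRNA, from 5.51 to 5.65 with Mef2c shRNA and from 5.66 to 5.91 in controls. Its log2 difference with Mef2c shRNA was -0.19 ± 0.070 and was not called (limma adjusted p = 0.0938, unadjusted 0.0137). All 6 Mef2c shRNA arrays lay below every control array, as did or exceeded those of the 7.74% of genes without overlap. The levels of Ptgs2os lie near the background guide (5.47), where RMA compresses differences, so no lack of change is read from the missing call. Pla2g4a, the cytosolic phospholipase A2 that releases arachidonate, lies on the other side of Ptgs2os. It ran from 7.60 to 7.86 with Nup210 shRNA, from 7.54 to 7.94 with Mef2c shRNA and from 7.77 to 8.02 in controls, and it was not called against controls in either group.

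**Figure D1:**
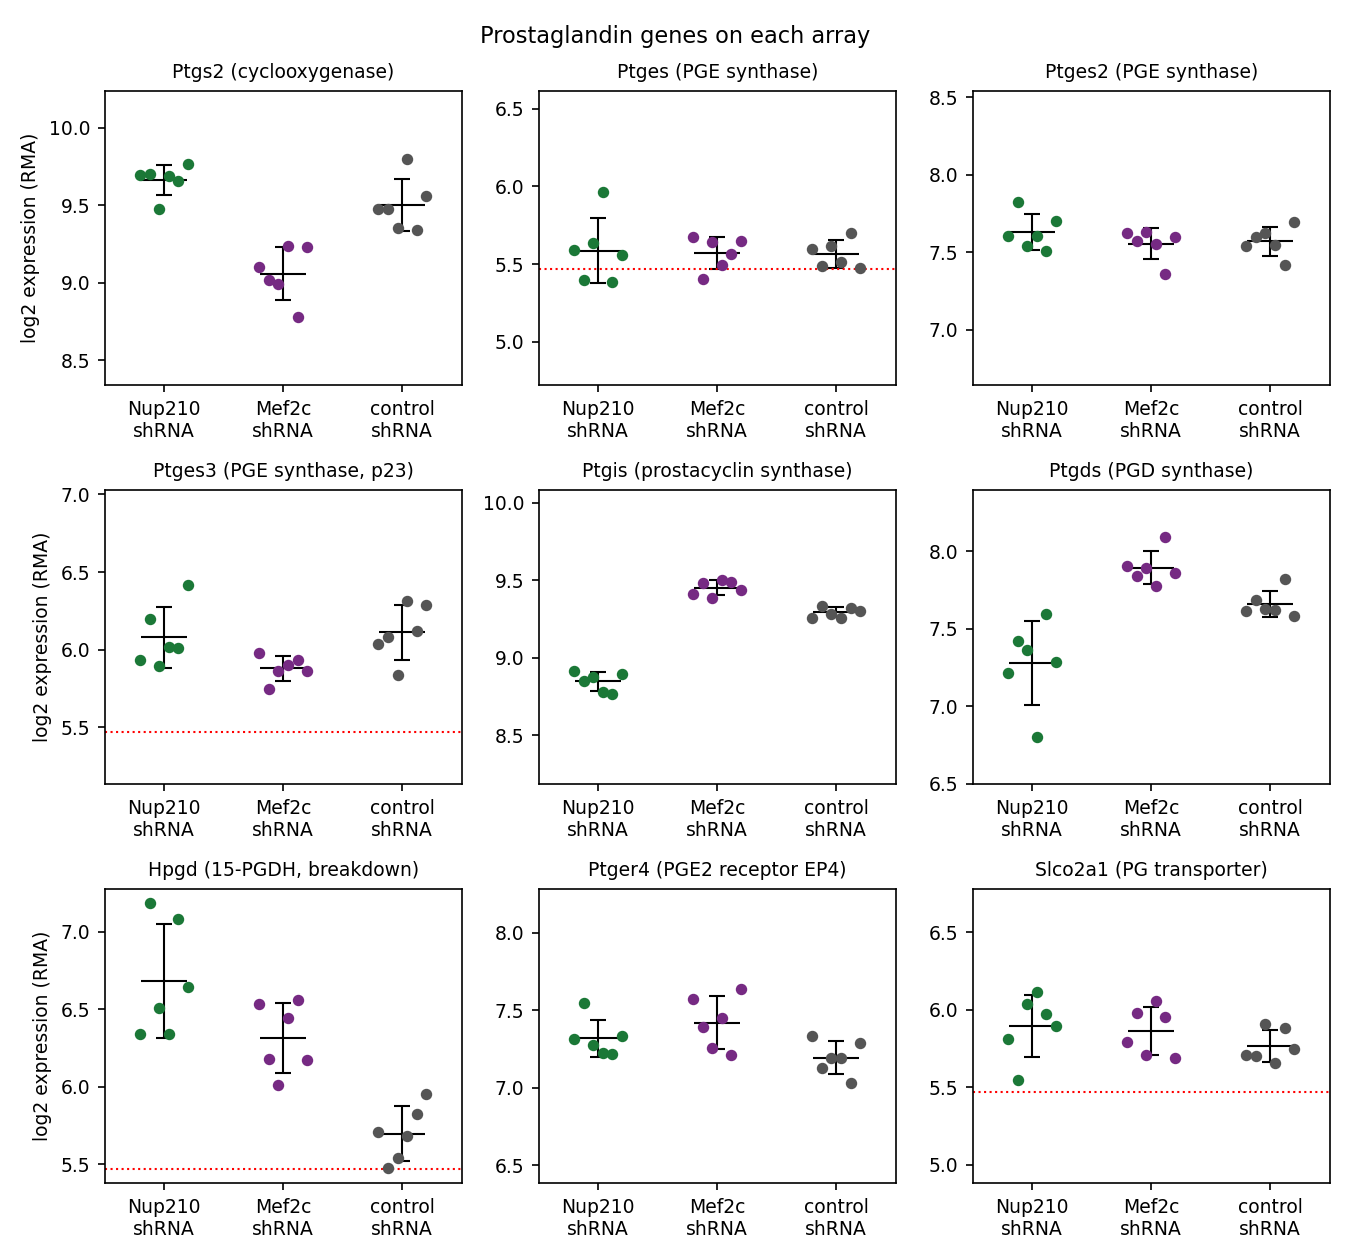
Log2 expression (RMA, y axis, the same span in every panel) of the 9 measured prostaglandin genes on each array, by shRNA group (x axis). Points are arrays, black bars are means with SD (n = 6), and the red dotted line is the receptor-gene background of 5.47; Ptgis forms 3 separate bands, Hpgd is lowest in controls, and Ptgs2 is lowest with Mef2c shRNA.

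Ptgis, the cytochrome P450 enzyme that makes prostacyclin, fell with Nup210 shRNA and rose with Mef2c shRNA. Its level ran from 8.77 through a median of 8.87 to 8.92 in Nup210 shRNA arrays, from 9.38 through 9.46 to 9.50 in Mef2c shRNA arrays, and from 9.26 through 9.29 to 9.34 in control arrays. No array of any group overlapped another group, which was so for 5.63% of all genes between Nup210 shRNA and control, 7.74% between Mef2c shRNA and control and 8.62% between Nup210 shRNA and Mef2c shRNA. Ptgis fell with Nup210 shRNA to 8.85 ± 0.062 (SD, n = 6) against 9.29 ± 0.033 in controls, a log2 difference of -0.44 ± 0.038 (SE), or 0.735 of the control level (limma adjusted p = 9.68e-07). It rose with Mef2c shRNA to 9.45 ± 0.049 against the same controls, by 0.16 ± 0.038 or 1.12-fold (adjusted p = 0.00974). The rise is small, and without control arrays 4 and 6, a choice made after earlier results were seen, its adjusted p was 0.0539. Set directly against each other, Nup210 shRNA arrays were 0.60 ± 0.038 lower than Mef2c shRNA arrays (log2 difference -0.60, adjusted p = 1.24e-08). The within-group SD of Ptgis, 0.049, was smaller than that of nearly all genes: only 3.01% had a lower one, and the median gene had 0.14.

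Ptgds, the lipocalin-type prostaglandin D synthase, showed the same order of groups with more spread. Its level ran from 6.80 through a median of 7.32 to 7.60 in Nup210 shRNA arrays, from 7.77 through 7.87 to 8.09 in Mef2c shRNA arrays, and from 7.58 through 7.62 to 7.82 in control arrays. Of the Nup210 shRNA arrays 5 lay below every control array, and of the Mef2c shRNA arrays 5 lay above every control array. Ptgds fell with Nup210 shRNA by 0.38 ± 0.096 (SE) on the log2 scale, to 7.28 ± 0.27 (SD, n = 6) against 7.66 ± 0.086 in controls (adjusted p = 0.0181). Array 4 was the lowest of that group, and without it the log2 difference was -0.28 (adjusted p = 0.0177). The call was narrowly lost with the Mef2c shRNA arrays kept out of the fit (adjusted p = 0.0526). With Mef2c shRNA the mean was 7.89 ± 0.11, and the log2 difference of 0.23 ± 0.096 from control was not called (adjusted p = 0.139, 95% interval 0.03 to 0.44). It was called without Nup210 shRNA array 4 (0.0271), with only the compared groups in the fit (0.0209) and with replicate numbers as a block (0.0435). Nup210 shRNA arrays were 0.61 ± 0.096 below Mef2c shRNA arrays (log2 difference -0.61, adjusted p = 0.000179), with no overlap between these groups. The same 2 groups did not overlap for 8.62% of all genes.

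The 3 genes named for prostaglandin E synthesis did not differ between groups by an amount that passed the limma test, and at an unadjusted p under 0.05 only Ptges3 differed, with Mef2c shRNA against control and between Nup210 shRNA and Mef2c shRNA. Ptges, the inducible microsomal enzyme, averaged 5.59 ± 0.21 (SD, n = 6) with Nup210 shRNA, 5.57 ± 0.11 with Mef2c shRNA and 5.57 ± 0.089 in controls, close to the background guide of 5.47. That guide is the level below which 95% of 1394 olfactory and vomeronasal receptor genes lie, which are made mainly in the nose. The 95% interval of the Ptges difference from control was -0.15 to 0.19 with Nup210 shRNA and -0.17 to 0.18 with Mef2c shRNA. Ptges2, a membrane-associated protein whose part in making prostaglandin E2 in mice is disputed, averaged 7.63 ± 0.11, 7.56 ± 0.099 and 7.57 ± 0.094 in the same groups, with intervals of -0.07 to 0.19 and -0.14 to 0.11. Ptges3, also known as the Hsp90 co-chaperone p23, averaged 6.08 ± 0.20, 5.88 ± 0.081 and 6.11 ± 0.18. Its difference of -0.23 ± 0.088 (SE) with Mef2c shRNA did not pass (adjusted p = 0.109), but did without control array 3 (0.0387).

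Hpgd, the enzyme that starts prostaglandin breakdown, was lowest in controls, which is the pattern that chose the set. Its level ran from 6.34 through a median of 6.57 to 7.18 in Nup210 shRNA arrays, from 6.01 through 6.31 to 6.56 in Mef2c shRNA arrays, and from 5.47 through 5.69 to 5.95 in control arrays. Every Nup210 shRNA and Mef2c shRNA array lay above every control array, which is part of that pattern. Of all genes 5.63% did not overlap between Nup210 shRNA and control, and 7.74% between Mef2c shRNA and control. Some control arrays lay at the background guide, a range where RMA compresses differences. The mean was 6.68 ± 0.37 (SD, n = 6) with Nup210 shRNA and 6.32 ± 0.23 with Mef2c shRNA, against 5.70 ± 0.18 in controls, differences of 0.98 ± 0.14 and 0.62 ± 0.14 (SE) or 1.98-fold and 1.54-fold. The rule did not ask whether the Nup210 shRNA and Mef2c shRNA groups differ from each other. It used the Hpgd values of both groups, however, so nothing is read from the p-value of their difference. Hpgd was 0.37 ± 0.14 higher with Nup210 shRNA than with Mef2c shRNA on the log2 scale, which did not pass (adjusted p = 0.114; 95% interval 0.06 to 0.67), and 3 of 6 Nup210 shRNA arrays lay above all Mef2c shRNA arrays. Hpgd varied more within groups than most genes, with an SD of 0.27 that exceeded 91.5% of them. Its highest values, 7.18 and 7.08, were in Nup210 shRNA arrays 2 and 5, which with array 4 had the lowest array weights of all 18 (0.724, 0.744 and 0.621 for arrays 2, 5 and 4). Without those 3 arrays the difference from control was 0.80 with Nup210 shRNA, and that from Mef2c shRNA was 0.18.

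Neither the receptor nor the transporter was called in any comparison by limma as first fitted, and of both genes over all 3 comparisons only Ptger4 with Mef2c shRNA had an unadjusted p under 0.05. Ptger4, the EP4 receptor that raises cyclic AMP, ran from 7.22 to 7.54 with Nup210 shRNA, from 7.21 to 7.64 with Mef2c shRNA and from 7.03 to 7.33 in controls. With Mef2c shRNA its log2 difference was 0.23 ± 0.076 (SE), with 4 of 6 arrays above every control array and an adjusted p of 0.0672. That p fell under 0.05 without Nup210 shRNA array 2 (0.0478) and without Mef2c shRNA array 3 (0.0428) or 5 (0.0321). It also did so after renewed quantile normalization (0.032), without dim genes (0.0319), with a trended robust prior (0.0364) and with array weights (0.0424). With replicate numbers as a block it was 0.0279, so the call depends on the fit. With Nup210 shRNA the difference was 0.13 ± 0.076 (adjusted p = 0.394). Slco2a1, the uptake transporter, ran from 5.55 to 6.11, from 5.69 to 6.05 and from 5.65 to 5.91 in Nup210 shRNA, Mef2c shRNA and control arrays. Its differences from control were 0.13 ± 0.088 with Nup210 shRNA and 0.09 ± 0.088 with Mef2c shRNA (adjusted p = 0.457 and 0.588).

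**Figure D2:**
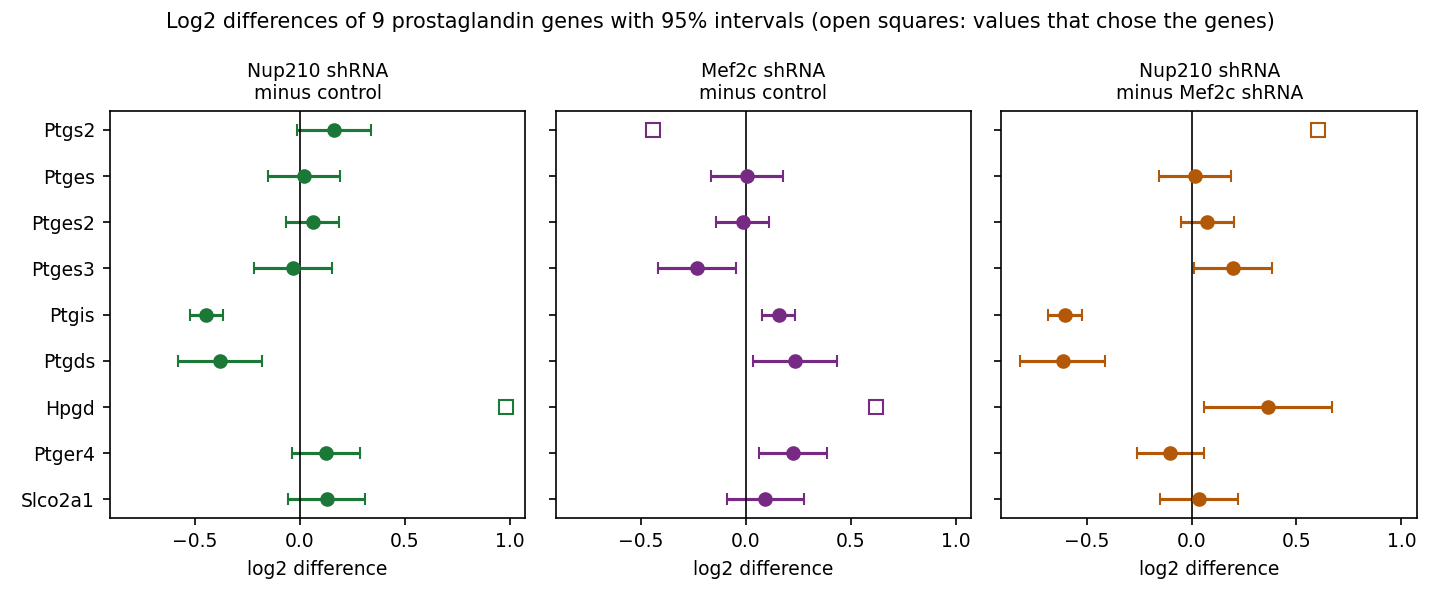
Log2 differences (x axis) of the 9 measured prostaglandin genes (rows) in the 3 comparisons (panels), with 95% intervals from the limma fit. Open squares without an interval are the Hpgd and Ptgs2 values that chose the set, and Ptgs2 between Nup210 shRNA and Mef2c shRNA. Ptgs2 with Nup210 shRNA, and Hpgd between Nup210 shRNA and Mef2c shRNA, have intervals but also share arrays with those values. Ptgis lies at -0.44, 0.16 and -0.60 across the panels, and Ptgds at -0.38, 0.23 and -0.61.

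Leaving aside the values that chose the set, 2 of 8 measured members were called with Nup210 shRNA (Ptgis and Ptgds, both lower), where 8.16% of all tested genes were called, 3.05% higher and 5.11% lower. With Mef2c shRNA 1 of 7 was called (Ptgis, higher), where 10.8% of all genes were called, 4.34% higher and 6.42% lower. The rule used both contrasts, so nothing is read from those counts, and both comparisons share the control arrays. Between Nup210 shRNA and Mef2c shRNA 2 of 8 were called (Ptgis and Ptgds, both lower with Nup210 shRNA), against 14% of all genes, 7.1% higher and 6.93% lower. The 8 include Hpgd, whose values in both groups entered the rule, so nothing is read from that count. The median log2 difference of the 9 genes was 0.06 with Nup210 shRNA and 0.09 with Mef2c shRNA, beside 0.015 and 0.020 over all genes in those comparisons. These medians include the Hpgd values, and with Mef2c shRNA the Ptgs2 value, that chose the set, so nothing is read from them.

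Among other genes of eicosanoid metabolism, Ptgfr had the largest difference from control, with Mef2c shRNA. Of 46 such genes listed 42 were measured, 26 of them above the background guide. With Nup210 shRNA 1 was called higher and 2 lower, 7.14% of those measured beside 8.16% of all genes, and 5 and 3 had an unadjusted p under 0.05. With Mef2c shRNA 2 were called higher and none lower in the limma fit, 4.76% beside 10.8% of all genes, with 6 and 4 at an unadjusted p under 0.05. Between Nup210 shRNA and Mef2c shRNA 2 and 2 were called, 9.52% beside 14% of all genes. Their median log2 differences from control were 0.04 with Nup210 shRNA and 0.02 with Mef2c shRNA. Ptgfr, the receptor of prostaglandin F2-alpha, which is known for promoting myotube growth, ran from 6.54 through a median of 7.33 to 7.57 in Nup210 shRNA arrays, from 7.49 through 8.02 to 8.18 in Mef2c shRNA arrays, and from 6.85 through 7.26 to 7.40 in control arrays. All Mef2c shRNA arrays lay above every control array, and these groups did not overlap for 7.74% of all genes. Ptgfr rose with Mef2c shRNA by 0.80 ± 0.17 (SE) on the log2 scale, or 1.74-fold (adjusted p = 0.00339). With Nup210 shRNA its difference was 0.0095 (adjusted p = 0.984), and the direct difference between these groups was -0.79 ± 0.17 (adjusted p = 0.00253).

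The other calls were smaller. Pla2g2e, a secreted phospholipase A2, rose with Mef2c shRNA by 0.26 ± 0.061 (SE; adjusted p = 0.00761) and stood 0.42 lower with Nup210 shRNA than with Mef2c shRNA (log2 difference -0.42, adjusted p = 9.58e-05). Mgll, the monoacylglycerol lipase that can supply arachidonate, fell with Nup210 shRNA by 0.38 ± 0.094 (adjusted p = 0.016), and Akr1b8, an aldo-keto reductase, by 0.29 ± 0.068 (adjusted p = 0.0116). Without Nup210 shRNA arrays 2, 4 and 5 neither was called (Mgll adjusted p = 0.285, Akr1b8 0.26), nor without control arrays 4 and 6 (0.12 and 0.0676). Alox15, a lipoxygenase, was called higher with Nup210 shRNA (adjusted p = 0.0437), but at 5.51 ± 0.18 (SD, n = 6) against 5.20 ± 0.19 in controls it lay at or below background. That call was lost without any 1 of Nup210 shRNA arrays 3, 4 and 5, Mef2c shRNA arrays 2 and 4 and control arrays 1, 2, 3, 4 and 6 (adjusted p from 0.0503 to 0.105). Cbr3, a carbonyl reductase, and Zadh2, a prostaglandin reductase, were called higher with Nup210 shRNA than with Mef2c shRNA, by 0.36 and 0.27 on the log2 scale (adjusted p = 0.00765 and 0.00535), and neither was called against control.

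**Figure D3:**
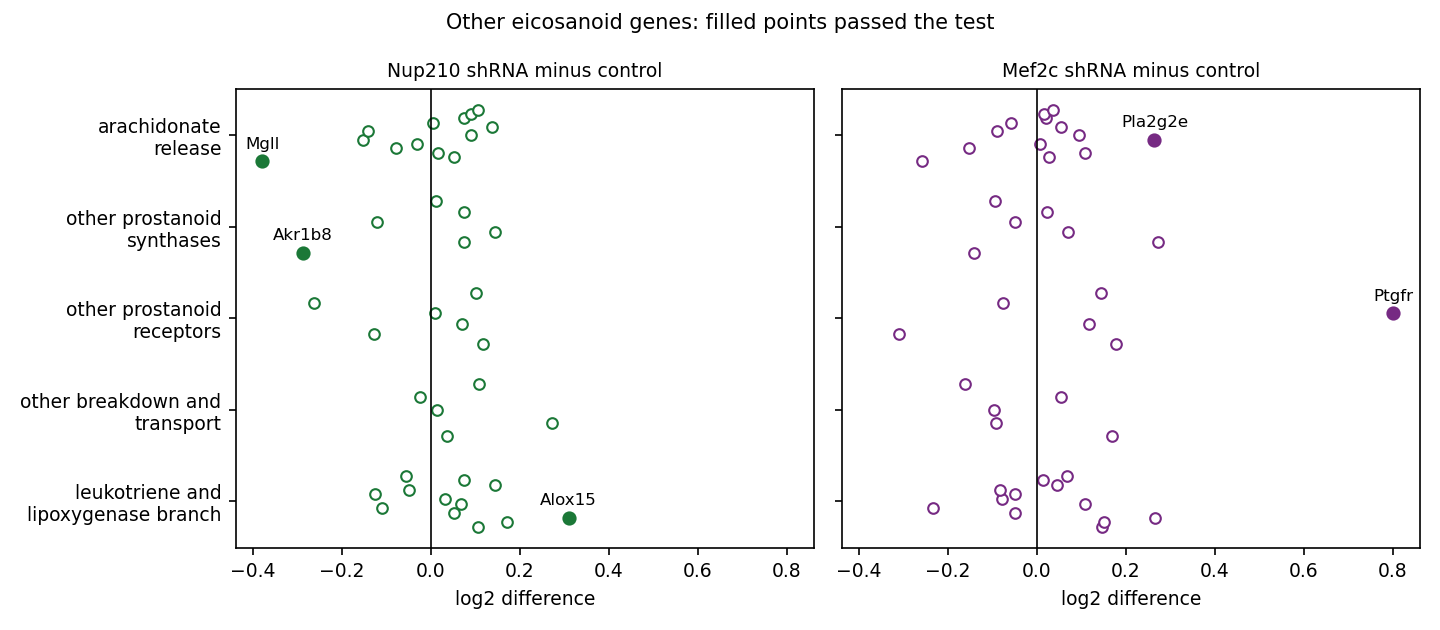
Log2 differences from control (x axis) of 42 other eicosanoid genes, 1 point per gene, by functional list (rows), for Nup210 shRNA (left) and Mef2c shRNA (right). Filled, named points were called; Ptgfr at 0.80 with Mef2c shRNA stands farthest from 0.

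Muscle markers were present, and 3 of 10 fell with Nup210 shRNA and 3 of 10 with Mef2c shRNA, while markers of other prostaglandin-making cell types were mostly at background. All 10 myotube markers were above the background guide. Their mean over an array ran from 11.59 to 11.67 with Nup210 shRNA, from 11.54 to 11.60 with Mef2c shRNA and from 11.67 to 11.77 in controls. Ckm, Myh3 and Mymk fell with Nup210 shRNA (log2 differences -0.39, -0.20 and -0.14), and Actn2, Myh3 and Acta1 fell with Mef2c shRNA (-0.67, -0.39 and -0.16). Of all genes 5.11% and 6.42% were called lower in those comparisons. The other 7 in each comparison were not called, with differences from -0.17 to 0.02 with Nup210 shRNA and from -0.16 to 0.02 with Mef2c shRNA. At an unadjusted limma p under 0.05, 4 of 10 were lower in each comparison and none higher. The added genes were Actn2 with Nup210 shRNA (adjusted p = 0.156) and Myog with Mef2c shRNA (adjusted p = 0.0506). Between Nup210 shRNA and Mef2c shRNA 4 of the 10 were called higher and 2 lower, beside 7.1% and 6.93% of all genes. The part of the muscle markers in the differences of the prostaglandin genes was not tested, and in bulk samples fewer cells of a type and less RNA per cell cannot be told apart. Of 8 macrophage markers 2 (Cd68 and Fcer1g) were above background, of 6 endothelial markers 1 (Kdr), and of 6 mast cell markers none. None of these 20 genes was called by limma in a comparison with control; at an unadjusted p under 0.05, 3 were higher with Nup210 shRNA (Adgre1, Fcer1a and Tpsb2) and 3 with Mef2c shRNA (Cpa3, Fcer1a and Tpsb2), all 4 of these genes below background. Their array means ran, for macrophage markers, from 4.85 to 5.16 with Nup210 shRNA, from 4.90 to 5.02 with Mef2c shRNA and from 4.83 to 4.998 in controls. For mast cell markers they ran from 3.91 to 4.06, from 3.87 to 4.07 and from 3.73 to 3.89 in the same order, all below background.

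The genes most like Ptgs2 and Hpgd across the 18 arrays were picked by Pearson's r among 12028 genes above the background guide, with predicted genes (Gm and Rik names), microRNAs and small RNAs left out, as a description that shares the 3 groups and the arrays. For Ptgs2 the highest were Nsd2 (r = 0.961), Fst (0.956) and Cd80 (0.945), and the lowest Gabre (-0.932), Nrbp2 (-0.927) and St3gal4 (-0.925). With group means removed, r with Ptgs2 was 0.848 for Nsd2, 0.800 for Fst and 0.774 for Cd80. It was -0.638 for Gabre, -0.621 for Nrbp2 and -0.617 for St3gal4. For Hpgd the highest were Robo2 (0.913), Pdgfc (0.902) and Naxe (0.892), and the lowest Tspan9 (-0.916), Pde2a (-0.895) and Jph1 (-0.893). With group means removed those with Hpgd were 0.654 for Robo2, 0.604 for Pdgfc and 0.662 for Naxe. They were -0.746 for Tspan9, -0.536 for Pde2a and -0.588 for Jph1.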

How the data were processed

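The deposited table holds log2 expression values for 41345 probe sets on 18 arrays. Per the submitters' processing notes the authors used RMA (background correction, quantile normalization and probe summary) and Partek; no source used here gives versions or settings. RMA compresses differences of dim genes, and a level cannot be set against that of another probe set. The platform annotation gives 1 symbol for 23521 probe sets, more than 1 for 1814 and no symbol for 16010. The brightest singly named probe set stood for each of 22180 genes. All 18 arrays entered 1 limma fit (limma 3.58.1, R 4.3.3; 15 residual degrees of freedom before moderation) without covariates, with p-values adjusted by Benjamini-Hochberg over all genes, and the script was tested on simulated data. The shRNA targets were compared by exact two-sided permutation tests of samples. The members and gene lists were chosen with earlier results of these data known. Named were all members, every listed pathway gene that was called, and the 3 genes most and least correlated with Hpgd and with Ptgs2. Alternatives covered normalization, filters, probe set choice, prior, weights, blocking, threshold and each array left out. Promoter windows are RefSeq's.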

Additional observations from a re-analysis of the deposited data

Results flagged for a closer look

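Ptgis differed between Nup210 shRNA and Mef2c shRNA, with a log2 difference of -0.60 for Nup210 shRNA minus Mef2c shRNA (limma adjusted p = 1.24e-08), and all 6 Nup210 shRNA arrays lay below all 6 Mef2c shRNA arrays. Ptgds differed in the same comparison by -0.61 (adjusted p = 0.000179), again in 6 of 6 arrays. Of all genes 8.62% did not overlap between these groups. Against the shared controls Ptgis passed in both directions, while Ptgds passed with Nup210 shRNA (-0.38) and, in the main fit, not with Mef2c shRNA (0.23, adjusted p = 0.139).

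Single arrays stood apart from the rest of their group in 5 of 33 groups examined, where chance gives about 1 in 20. Ptgs2 was 9.48 in Nup210 shRNA array 3, with the next array at 9.66 and the highest at 9.76. Ptges2 was 7.36 in Mef2c shRNA array 5, below the next at 7.55. Ptger4 was 7.54 in Nup210 shRNA array 2, above the next at 7.34. Nup210 was 5.57 in control array 6, below the next at 5.75, and Mef2c was 7.51 in Mef2c shRNA array 5, below the next at 7.88. For Ptges2 and for Mef2c, array 5 was also the lowest of the Nup210 shRNA group and of the control group.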

How the results depend on the processing

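In the main fit the number of members called was 3 in each comparison. It includes 1 value with Nup210 shRNA, 2 with Mef2c shRNA and 1 between these that chose the set or share its arrays, so its steadiness is no evidence about the set. Leaving out single arrays it was 3 to 3 with Nup210 shRNA, 3 to 4 with Mef2c shRNA and 3 to 3 between Nup210 shRNA and Mef2c shRNA. The count also fell. With Nup210 shRNA Ptgds lost its call at an adjusted p under 0.01 and with only the compared groups in the fit (0.0526). With Mef2c shRNA Ptgis lost its call without control arrays 4 and 6 (0.0539). The labels do not state that equal replicate numbers pair samples, so the main fit left them unpaired. With group means removed, same-numbered arrays correlated by -0.18 to 0.22, and own number was best in 3, 4 and 4 of 6. Arrays of different numbers correlated by -0.0064, -0.014 and -0.013 on average in those comparisons. Array 5 was the lowest of its group in all 3 groups for Ptges2, Ptger4 and Mef2c. These values hint at variation shared by replicate number, so calls that change with a replicate block are not settled. With the replicate block 2221, 2862 and 3528 genes were called in place of 1809, 2386 and 3113, and 5 members were called with Mef2c shRNA, Ptgds (adjusted p = 0.0435) and Ptger4 (0.0279) being added, and the member counts of the other comparisons stayed at 3. Ptgds with Mef2c shRNA was also called with only the compared groups in the fit (0.0209), and Ptger4 after renewed quantile normalization (0.032), without dim genes (0.0319), with a trended robust prior (0.0364) or with array weights (0.0424); the cause was not tested. Differences near 0 changed sign. Ptges with Nup210 shRNA was -0.0088 after renewed quantile normalization and -0.015 without control arrays 4 and 6, and Ptges3 was 0.060 without those. Ptges with Mef2c shRNA was -0.029, -0.013, -0.0048 and -0.030 under renewed quantile normalization, median centring, array weights and removal of control arrays 4 and 6, and Ptges2 was 0.0063 and 0.011 under the first and last of these. Leaving out single arrays, Ptges ran from -0.054 to 0.062 with Nup210 shRNA, from -0.015 to 0.040 with Mef2c shRNA and from -0.060 to 0.056 between Nup210 shRNA and Mef2c shRNA, Ptges3 from -0.10 to 0.0061 with Nup210 shRNA, Ptges2 from -0.044 to 0.025 with Mef2c shRNA, and Slco2a1 from -0.0082 to 0.10 between Nup210 shRNA and Mef2c shRNA. Over all genes 904, 1302 and 1899 were called at an adjusted p under 0.01, where Ptgds, Mgll, Akr1b8 and Alox15 lost their calls with Nup210 shRNA. Alox15 also lost it with only the compared groups in the fit (0.0887) and with array weights (0.0643). Without Nup210 shRNA arrays 2, 4 and 5, a choice made after seeing the data, 563 genes were called with Nup210 shRNA. Without control arrays 4 and 6, chosen likewise, 1103 were called with Nup210 shRNA and 1420 with Mef2c shRNA. Of the calls 62.6% were lower with Nup210 shRNA and 59.6% with Mef2c shRNA, against 74.9% and 69.6% under median centring and 55.3% and 51.9% after renewed quantile normalization. Ptges, Alox15 and some Hpgd control values lie near background, where the arrays resolve little.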
